A study of Rattus norvegicus with 6 samples.

Results

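The cytosolic ribosomal proteins are described here through 44 named genes, 29 of the large and 15 of the small ribosomal subunit, in normal and fibrotic rat liver. A probe was taken for a gene where the RefSeq accession in the array files belonged to it. This found 42 of the 44 genes, with 76 of the 30367 probes on the array, and Rpl37 and Rps9 had no matched probe. Of the 76 probes, 75 were bright enough to test. They covered all 42 genes: 16 genes with 1 probe, 20 with 2, 5 with 3 and 1 with 4.

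RNA was extracted from blocks of liver, and each of 6 rats was measured on its own 1-colour Agilent array. There were 3 normal rats and 3 rats made fibrotic by bile duct ligation, in which the tied duct dams up bile and the liver scars. Strain, sex, age, the time after ligation and whether the normal rats had a sham operation are not given in the sources used here. The comparison asks how gene expression in the fibrotic liver differed from that in the normal liver.

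The cytosolic ribosome translates messenger RNA in every cell. Its small subunit holds the message and decodes it, and its large subunit joins the amino acids. Ribosomal protein genes are among the most strongly transcribed genes of any tissue, including the protein-secreting hepatocyte. Their messages mostly begin with a run of C and T bases, the terminal oligopyrimidine tract, through which the mTOR kinase pathway governs how actively they are translated. An array measures the amount of message and not its translation.

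The sequences around the annotated transcription start are printed for 12 members whose values are described below. In 6 of them the longest run of C and T spans the annotated start, and in 6 it does not. In each, 30 bases run 5′ to 3′ with 15 before the start base and 15 from it onward, and capitals mark the longest run of C and T. They come from the RefSeq promoter table of the GRCr8 build, which held 38 of the 44 members.
Rplp0: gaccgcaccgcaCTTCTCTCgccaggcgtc
Rplp1: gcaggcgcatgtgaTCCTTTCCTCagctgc
Rpl9: gacgaaggacgTTCTCTCTTTgccccatct
Rps23: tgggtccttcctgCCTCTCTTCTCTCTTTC
Rpl12: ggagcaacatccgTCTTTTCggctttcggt
Rpl22: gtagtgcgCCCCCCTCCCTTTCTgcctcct
Rpl11: ggggaCTTgaagcttgtttggtgctgggga
Rps16: cctggaaaatcggtcggggtggCCCCaagc
Rplp2: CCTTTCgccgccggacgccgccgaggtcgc
Rpl5: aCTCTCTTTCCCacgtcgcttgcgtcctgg
Rps6: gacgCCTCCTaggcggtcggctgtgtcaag
Rps19: cccgacttgtgcgcccgggaaaCCCCgtcg

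The Rplp0 window lies at chr12:46718376-46718405 on the minus strand, and the Rplp1 window at chr8:71290858-71290887 on the minus strand. The Rpl9 window lies at chr14:43247575-43247604 and the Rps23 window at chr2:23814502-23814531, both on the plus strand. The Rpl12 window lies at chr3:36661925-36661954 and the Rpl22 window at chr5:168117946-168117975, both on the plus strand. The Rpl11 window lies at chr5:153560788-153560817 on the minus strand, and the Rps16 window at chr1:92770643-92770672 on the plus strand. The Rplp2 window lies at chr1:205975906-205975935 on the plus strand and the Rps19 window at chr1:89608673-89608702 on the plus strand. The Rpl5 window lies at chr14:1995211-1995240 and the Rps6 window at chr5:106420526-106420555, both on the minus strand. In the first 6 of these genes the marked run spans the annotated start. In Rpl11, Rps16, Rplp2, Rpl5, Rps6 and Rps19 it does not.

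A run of at least 5 C or T bases from the start base was present in 22 of the 38 members (57.9%), against 4.75% of the 33465 promoters in the table. Within the 300 bases of each promoter, on either strand, CCGGAAG was found in 12 members (31.6%, against 8.75% of all promoters), CTTTCC in 15 (39.5%, against 26.4%), GGGCGG in 20 (52.6%, against 33.1%) and TATAAA in 3 (7.89%, against 14.2%). CTTTCC can fall inside the run of C and T. Each motif was searched as these letters, and a match is a description of sequence only.

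No ribosomal protein gene passed the test between fibrotic and normal liver at the main setting. Values are log2 processed signals minus the 75th percentile of their array, and a difference is the mean of the 3 fibrotic livers minus the mean of the 3 normal livers. With limma and Benjamini-Hochberg adjustment over 19731 tested probes, a probe was called at an adjusted p under 0.05, and each gene was counted through its probe of highest mean signal. Of the 42 genes, 0 were called higher and 0 lower. Over all 10864 tested genes 14.7% were called higher and 7.62% lower. At an unadjusted p under 0.05 there was 1 of 42 genes, against 36.4% of all genes tested.

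The fibrosis mean nevertheless lay below the normal mean in 36 of the 42 genes, against 53.6% of all tested genes. The median difference over the 42 genes was -0.26, with a range from -0.75 to 0.68, against a median of -0.07 over all tested genes. The 28 large subunit genes had a median of -0.28, with 24 below 0. The 14 small subunit genes had a median of -0.19, with 12 below 0. The normal and fibrosis values did not overlap, with fibrosis lower, in 7 genes (16.7%, against 20.9% of all tested genes). They did not overlap with fibrosis higher in 1 gene, Rpl15 (2.38%, against 22.1%). By probe, 8 of 75 (10.7%, against 19.3% of all tested probes) did not overlap with fibrosis lower, and 4 (5.33%, against 19.1%) with fibrosis higher. The 95% interval of the difference stayed between -1 and 1 for 26 of the 42 genes and reached -1 or 1 for the other 16.

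**Figure D1:**
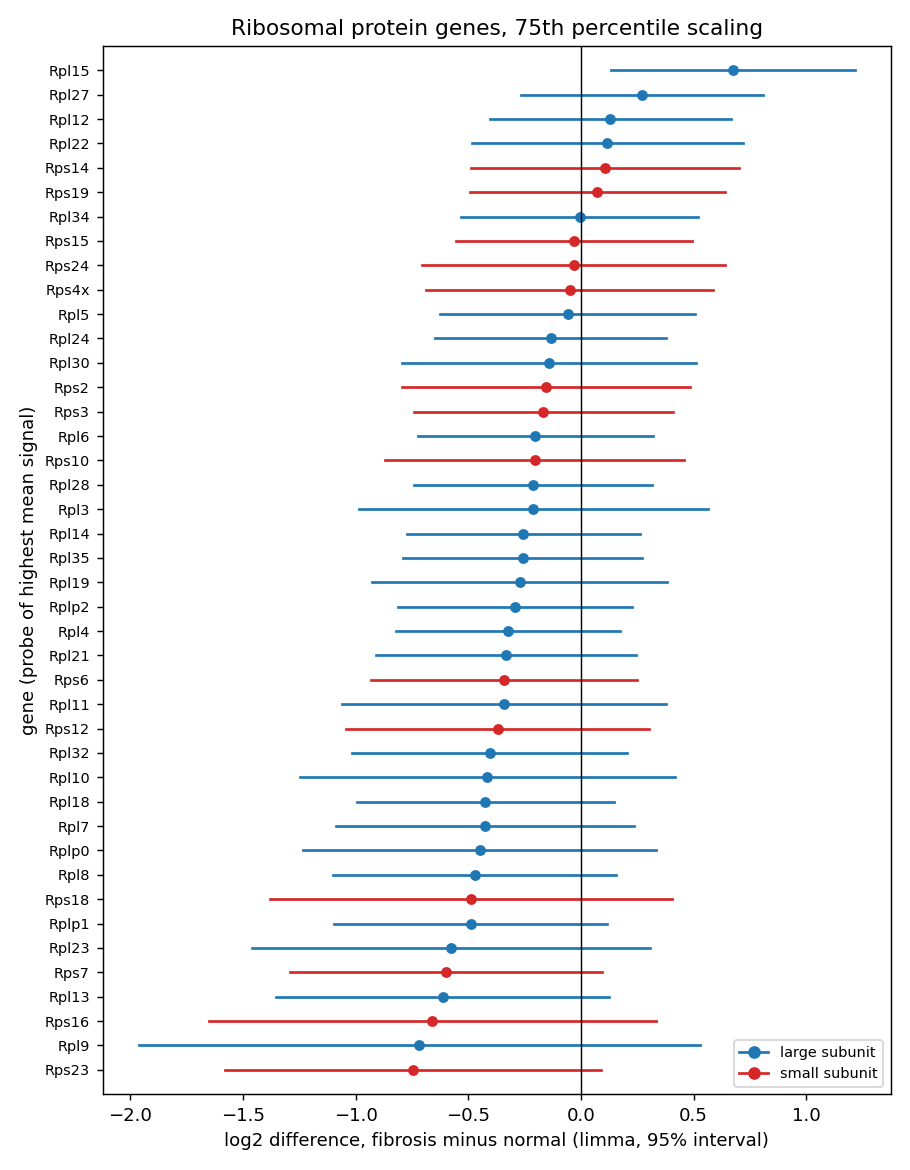
Difference in log2 signal between fibrotic and normal liver for each of the 42 ribosomal protein genes, with points for the limma estimate and lines for its 95% interval (3 arrays per group). Points lie left of 0 for 36 genes, and the estimates run from -0.75 for Rps23 to 0.68 for Rpl15.

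With the 75th percentile scaling, fibrosis 1 and fibrosis 3 lay mostly below the normal livers in these genes, and fibrosis 2 did not. For each array the deviation is its value minus the normal mean of the same probe. Over the 42 genes the median deviation was -0.38 in fibrosis 1, 0.11 in fibrosis 2 and -0.48 in fibrosis 3, where all tested genes had medians of -0.10, -0.03 and -0.00. Of the 75 probes, 62 (82.7%) had their highest fibrosis value in fibrosis 2, against 38.4% of all tested probes. Fibrosis 3 was the lowest of all 6 arrays for 44 probes (58.7%, against 27.6%) and fibrosis 1 for 21 (28%, against 16.2%). Fibrosis 2 was the lowest for 0 probes, against 20.2%.

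In fibrosis 3, 24 of 75 probes (32%) lay at least 1 log2 unit below their normal mean, against 15.3% of all tested probes. The same held for 4 probes in fibrosis 1 (5.33%, against 7.52%) and 0 in fibrosis 2 (against 11.2%). The median SD over the 75 probes was 0.142 in the normal and 0.423 in the fibrotic group, against 0.228 and 0.424 over all tested probes. Across the 75 probes, which share arrays and in part genes, the deviations of fibrosis 1 and fibrosis 3 had a Pearson r of 0.78 and a Spearman rho of 0.74. For fibrosis 1 with fibrosis 2 the r was -0.07, and for fibrosis 2 with fibrosis 3 it was -0.14. Over all 19731 tested probes the same pairs gave 0.77, 0.82 and 0.68. All deviations use the same normal means, so these correlations are descriptions only.

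**Figure D2:**
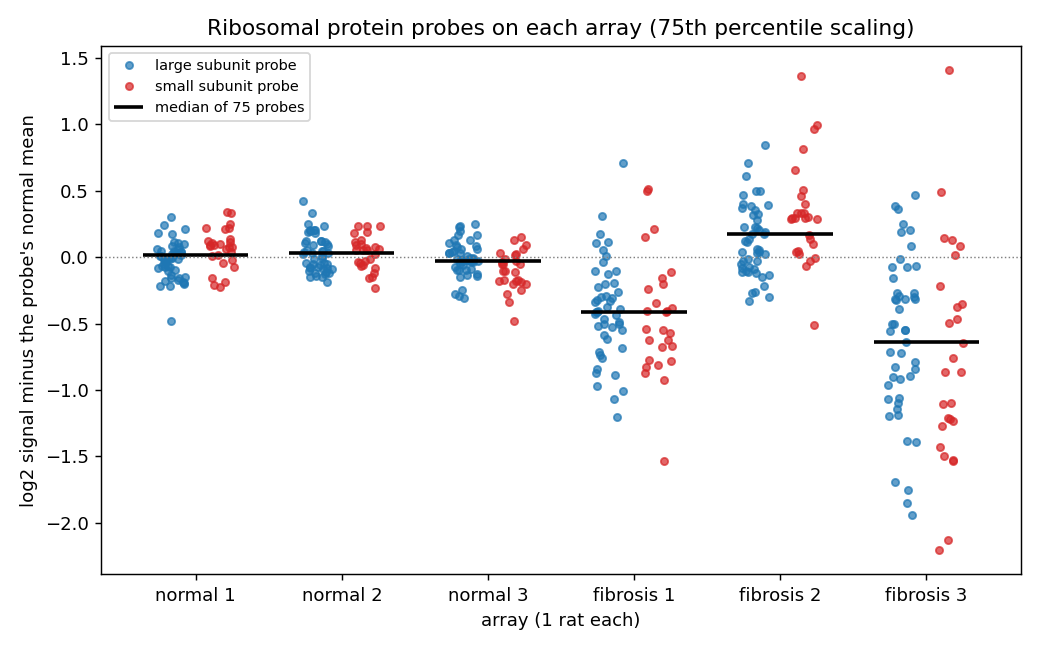
Deviation of each of the 75 ribosomal protein probes from its normal mean, in log2 units, on each of the 6 arrays, with large and small subunit probes in separate colours and a bar at the median. The probes stay close to 0 in the 3 normal livers, and their medians are -0.41 in fibrosis 1, 0.17 in fibrosis 2 and -0.64 in fibrosis 3.

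With the 75th percentile scaling fibrosis 2 stood apart from the other fibrotic livers in these genes, so the fit was also read without it. That reading was picked out after these values were seen. Fibrosis 2 was the highest fibrotic liver for most members, so leaving it out lowers their differences. The counts and p-values of that reading are therefore descriptions only. In it 5 of 42 genes were lower (11.9%, against 7.29% of the 11040 genes tested that way) and 0 higher. Of the 42 genes, 38 lay below 0, with a median of -0.44. The 5 genes were Rpl9 (-1.38, limma adjusted p = 0.0267), Rpl23 (-1.03, adjusted p = 0.0235), Rps16 (-1.15, adjusted p = 0.0338), Rpl13 (-0.94, adjusted p = 0.0388) and Rps23 (-1.10, adjusted p = 0.0410). By probe, 16 of 75 were lower (21.3%, against 7.36%). The second Rps16 probe went the other way (0.95) and was not called. Without fibrosis 3, 1 gene was higher (2.38%, against 16.1%), which was Rpl15. By probe it was 2 of 76 (2.63%, against 13.8%), of which the other is the third Rpl28 probe, dim on all normal arrays and tested in that reading only because both remaining fibrotic livers passed the filter. Over the 75 probes of the main test it was 1.

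limma array weights, which count an array less the more it departs from its group over all probes, were 3.04 for fibrosis 1, 0.354 for fibrosis 2 and 0.240 for fibrosis 3. With them 7 genes were lower (16.7%, against 19.7% of all genes) and 1 higher (2.38%, against 21.2%). The 7 were Rpl13, Rpl18, Rpl23, Rpl32, Rps7, Rps16 and Rps23, and the 1 was Rpl15. For Rps16 the first probe was called lower (-0.72) and the second higher (0.72). By probe, 16 were lower (21.3%, against 18.1%) and 2 higher (2.67%, against 18.4%). With trend and robust settings of eBayes 1 probe was lower, of Rps2 (1.33%, against 8.45%), and 1 higher, of Rps16 (1.33%, against 12.4%). Genes outside the naming rule in these readings were named after their values were seen.

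The arrays' position and other measures are given beside this split. Fibrosis 1 lay in the same slide row as the 3 normal arrays, and fibrosis 2 and 3 in the other row. Within the first row the comparison is fibrosis 1 alone against normal, with the median of -0.38 above. A fit with the row as a block gives the same value by construction, since the second row holds no normal liver. Its 0 called genes rest on 1 fibrotic array, assumed to vary like the others. The 75th percentile used for scaling was 3906, 4386 and 3755 on the normal arrays and 6401, 4840 and 5119 on fibrosis 1, 2 and 3. The 13 housekeeping genes listed beside them had median deviations of -0.02, -0.01 and -0.63 in fibrosis 1, 2 and 3. The part of array position, RNA quality or scaling in the split between livers was not tested.

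The direction of the group difference depended on the scaling. The median over the 42 genes was -0.26 with the 75th percentile, -0.62 with the array median, -0.11 with the 75th percentile over probes above background on all arrays and -0.30 with normexp background correction. With quantile normalization it was 0.14, cyclic loess gave 0.18, and the E1A control probes (spots for spike-in RNA) gave 0.04. All tested genes had medians of -0.07, -0.42, 0.09, -0.10, -0.07, 0.01 and 0.24 under the same 7 settings, in that order. The genes below 0 numbered 36 with the 75th percentile and 41 with the array median, but 9 with quantile normalization and 9 with cyclic loess.

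Over these 7 settings, 32 of the 42 genes changed sign. Lower in all 7 were Rpl8, Rpl9, Rpl13, Rpl23, Rplp1, Rps7, Rps16, Rps18 and Rps23, and higher in all 7 was Rpl15. These are 21.4% and 2.38% of the members, each counted through its probe of highest mean signal. The second Rps16 probe was instead higher in all 7 (0.73 to 1.40). Of the 10864 tested genes 34.4% were lower in all 7, 30% were higher in all 7 and 35.6% changed sign. Fibrosis 2 was the highest of the 3 fibrotic livers in the medians over the members under each setting except the E1A scaling, where fibrosis 1 was. Fibrosis 1 and 3 did not lie below the normal livers under every setting. Their medians were 0.19 and 0.06 with quantile normalization, and 0.22 and 0.07 with cyclic loess. With the E1A probes they were 0.34 and -0.20. Under the remaining settings both were below 0. Under the array median, Rplp1 (-0.85, limma adjusted p = 0.0404), Rps23 (-1.10, adjusted p = 0.0452), Rps7 (-0.95, adjusted p = 0.0422) and Rpl8 (-0.83, adjusted p = 0.0491) were lower, 4 of 42 genes (9.52%, against 21.2% of all genes). By probe this was 5 of 75 (6.67%, against 19.7%). The array median, the E1A scaling and the 75th percentile over probes above background each moved the median of all genes by more than 0.1.

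**Figure D3:**
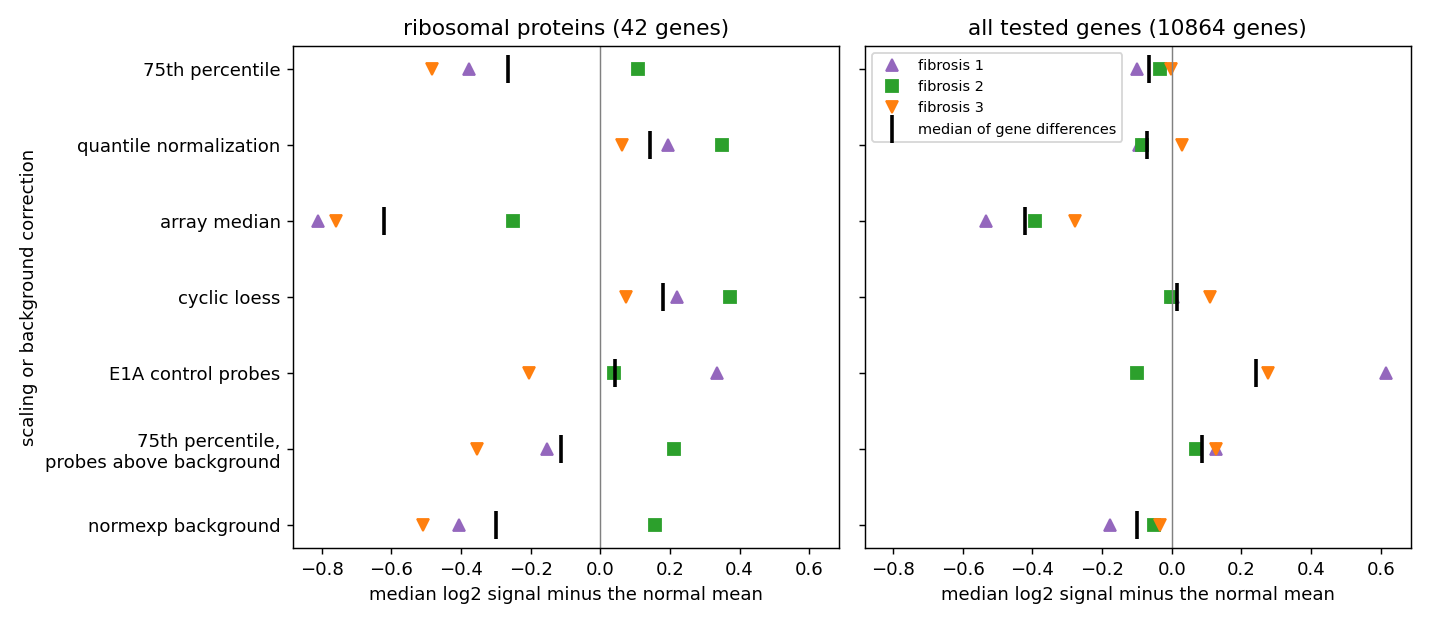
Median deviation from the normal mean, in log2 units, of the 42 ribosomal protein genes (left) and of all 10864 tested genes (right) on each fibrosis array under 7 scalings or background corrections, with a bar for the median of the gene differences. The bar of the ribosomal protein genes lies between -0.62 with the array median and 0.18 with cyclic loess.

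Rplp0, Rplp1 and Rplp2 form the stalk of the large subunit, which recruits and activates the GTPase factors of translation. The signal of the probe that stands for Rplp0 was 4.21, 4.03 and 4.27 in normal livers 1 to 3 and 3.66, 4.39 and 3.10 in fibrotic livers 1 to 3. Its groups overlapped, since fibrosis 2 was the highest array and fibrosis 1 and 3 the lowest. The difference was -0.45 ± 0.34 (SE, n = 3 per group, limma adjusted p = 0.414), and the other Rplp0 probe gave -0.43. Rplp1 read 3.43, 3.54 and 3.34 in normal and 3.15, 3.18 and 2.52 in fibrotic livers, without overlap. Its difference was -0.49 ± 0.26 (SE, adjusted p = 0.244). Rplp2 read 3.68, 3.57 and 3.60 against 3.15, 3.50 and 3.32, also without overlap, with a difference of -0.29 ± 0.23 (SE, adjusted p = 0.423).

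Rpl5 and Rpl11 join the large subunit together with its smallest RNA, and when free they bind Mdm2, the ubiquitin ligase of p53. Rpl5 read 3.03, 3.42 and 3.20 in normal and 3.33, 3.24 and 2.90 in fibrotic livers. The groups overlapped throughout, with a difference of -0.06 ± 0.25 (SE, limma adjusted p = 0.896). Rpl11 read 3.77, 3.61 and 3.80 against 3.21, 4.01 and 2.94, so fibrosis 2 was above and fibrosis 1 and 3 below all normal livers. Its difference was -0.34 ± 0.31 (SE, adjusted p = 0.50).

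Rps6, the small subunit protein that kinases downstream of mTOR phosphorylate, read 3.73, 3.84 and 3.71 in normal livers. In fibrotic livers it read 3.34, 3.80 and 3.11, with fibrosis 2 inside the normal range and the other two below it. The difference was -0.34 ± 0.26 (SE, limma adjusted p = 0.410), and the second Rps6 probe gave -0.36. Rps19, needed for small subunit maturation and known from inherited red cell aplasia, had 3 probes. The one that stands for it read 3.19, 2.89 and 3.27 against 2.95, 3.41 and 3.20, with a difference of 0.07 ± 0.25 (SE, adjusted p = 0.873). The second gave 0.15 and the third -0.46, the latter reading 2.59, 2.38 and 2.53 against 1.88, 2.50 and 1.75.

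The lowest differences belonged to Rps23, Rpl9 and Rps16. Rps23, a protein of the decoding centre, read 3.83, 4.22 and 4.06 in normal and 3.26, 4.01 and 2.61 in fibrotic livers. Fibrosis 2 lay within the normal range and the others below it, for a difference of -0.75 ± 0.36 (SE, limma adjusted p = 0.199). Its other 2 probes gave -0.59 and -0.51. Rpl9, which lies near the base of the stalk, read 2.87, 2.94 and 2.47 against 1.75, 3.37 and 1.01. Fibrosis 2 was above and fibrosis 1 and 3 well below the normal livers, which gave -0.72 ± 0.54 (SE, adjusted p = 0.411). The second Rpl9 probe read 2.49, 2.11 and 2.16 against 1.04, 2.96 and 0.31, the same order of arrays within the fibrotic group.

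The highest differences belonged to Rpl15, Rpl27 and Rpl12, all of the large subunit. Rpl15, measured by 1 probe with 10 spots, read -2.05, -2.33 and -2.30 in normal and -1.52, -1.38 and -1.75 in fibrotic livers. Its normal mean of -2.22 was the lowest among the tested member probes, with the next lowest at -0.11. All 3 fibrotic livers were above all 3 normal livers, and the SD over the 10 spots within an array was at most 0.160. The difference was 0.68 ± 0.24 (SE, 1.60-fold, limma adjusted p = 0.0846), so it missed the threshold. It passed with the 75th percentile over probes above background (0.83, adjusted p = 0.0409), where it was 1 of 42 genes (2.38%, against 16.9%) and 1 of 2 probes (2.67%, against 14.3%), and without fibrosis 3 (0.78, adjusted p = 0.0480). Rpl27 read 2.45, 2.82 and 2.59 against 2.93, 2.73 and 3.01, with 0.27 ± 0.23 (SE, adjusted p = 0.473). Rpl12, at the base of the stalk, read 3.32, 3.14 and 3.20 against 3.33, 3.57 and 3.15, with 0.13 ± 0.23 (SE, adjusted p = 0.747). Both overlapped between groups.

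Probes of the same gene did not always move together, in these genes as over all genes. Of the 26 genes with several tested probes, 6 had differences on both sides of 0. This is close to the share over all such genes, 359 of 1631. The differences of a gene's probes spanned a median of 0.193 in the members, against 0.319 over all such genes. In fibrosis 3 the deviations of a gene's probes spanned a median of 0.416, against 0.612 over all such genes. A gene's probes share the gene but not the sequence, and processed copies of ribosomal protein genes are numerous in mammalian genomes. Whether a probe also reads such copies was not tested.

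The widest disagreement was in Rps16, a small subunit protein. Its first probe read 3.46, 3.27 and 3.28 in normal and 2.52, 3.66 and 1.83 in fibrotic livers, with -0.66 ± 0.43 (SE, limma adjusted p = 0.340). Its second probe was dimmer in normal liver than every tested member probe but that of Rpl15. It read 0.23, -0.26 and -0.28 against 0.39, 1.26 and 1.30, all fibrotic livers above all normal ones. That probe, at 1.09 ± 0.32 (SE, 2.13-fold, adjusted p = 0.0480), was the only one of the 75 called higher (1.33%, against 12.4% of all tested probes), and 0 were called lower (against 6.79%). The call held with quantile normalization, cyclic loess, the E1A probes, the 75th percentile over probes above background and normexp (adjusted p from 0.0126 to 0.0451). Leaving out marked spots (adjusted p = 0.0439) or fibrosis 1 (adjusted p = 0.0216) and array weights (adjusted p = 0.0428) also kept it. The call was lost under the array median (0.73, adjusted p = 0.130), and with no filter (adjusted p = 0.0936). With the slide row as a block the value is that of fibrosis 1 alone (0.50, adjusted p = 0.527). It was also lost without normal 1 (adjusted p = 0.0695), normal 2 (adjusted p = 0.161) or normal 3 (adjusted p = 0.180), and without fibrosis 2 (adjusted p = 0.0976) or fibrosis 3 (adjusted p = 0.0950).

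Rps14, lost in a form of myelodysplasia, had a first probe that read 2.65, 2.54 and 2.09 against 2.31, 2.72 and 2.57, for 0.11 ± 0.26 (SE, limma adjusted p = 0.819). Its second read 2.61, 2.84 and 2.35 against 1.92, 3.00 and 1.39, for -0.50 ± 0.41 (SE, adjusted p = 0.448). The first thus barely moved in fibrosis 3, where the second was the lowest of the 6 arrays. Rps15, of the head of the small subunit, read 3.08, 2.96 and 2.97 against 2.76, 3.02 and 3.13 with its first probe, and 1.86, 2.12 and 2.08 against 2.53, 2.32 and 2.51 with its second, whose groups did not overlap (0.43 ± 0.23, SE, adjusted p = 0.229).

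Rpl22, which has a close paralog in Rpl22l1, read 2.75, 3.01 and 3.14 against 2.74, 3.36 and 3.16, for 0.12 ± 0.26 (SE, limma adjusted p = 0.800), and its second probe gave -0.01. Rpl35 read 3.38, 3.30 and 3.43 against 2.95, 3.34 and 3.05 with its first probe (-0.26 ± 0.23, SE, adjusted p = 0.491), and 0.01 and -0.02 with the others. Rps2 and Rpl21 are shown with these genes after their values were seen. The 4 Rps2 probes gave -0.16, -0.85, -0.72 and -0.89 and spanned 1.85 in fibrosis 3, and the 3 Rpl21 probes gave -0.33, -0.35 and -0.39. The third Rpl28 probe, dim on all 3 normal arrays, was not tested.

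**Figure D4:**
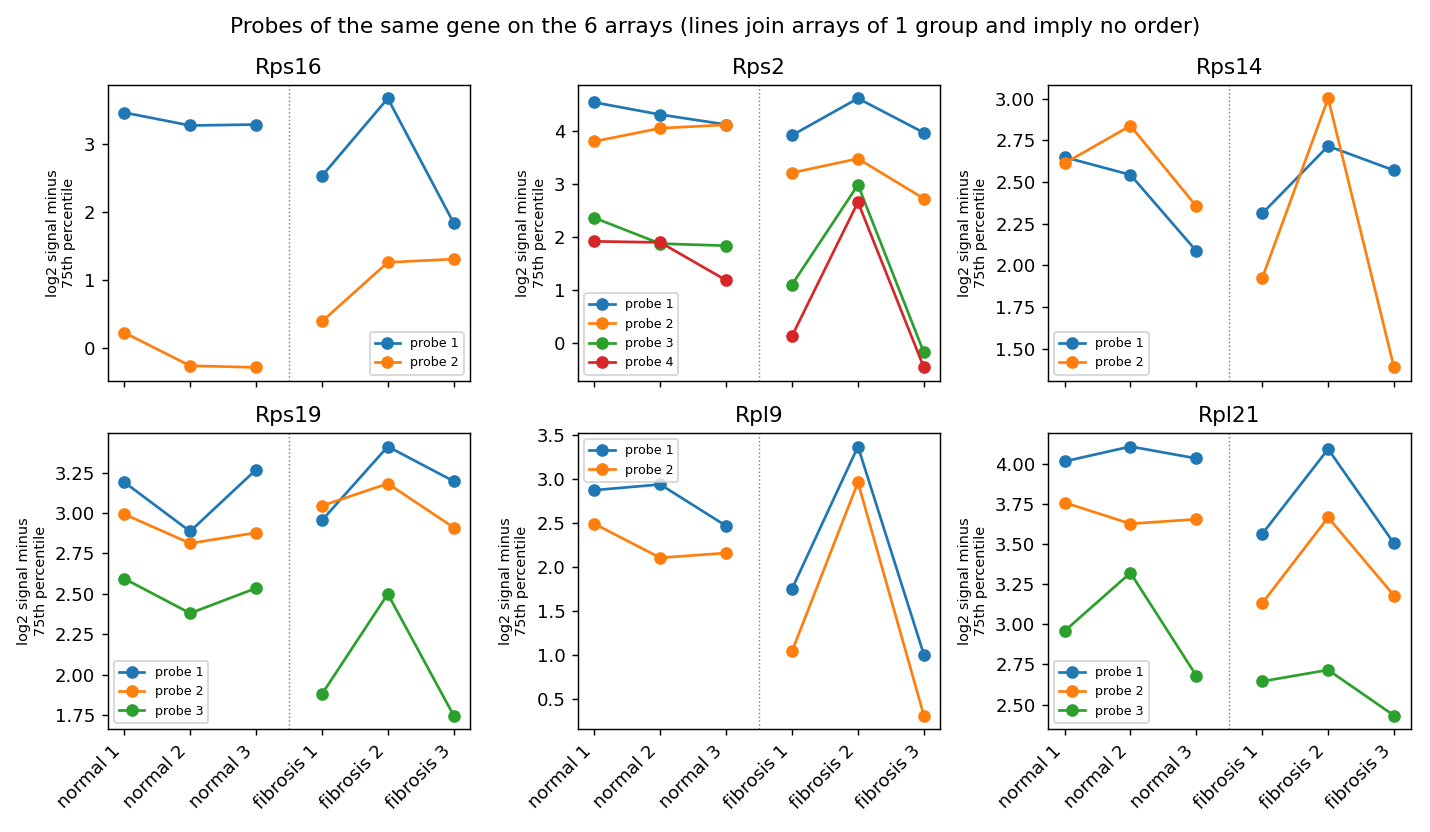
Log2 signal minus the array's 75th percentile of each tested probe of Rps16, Rps2, Rps14, Rps19, Rpl9 and Rpl21 on the 6 arrays, where lines join arrays of 1 group and imply no order. The Rps16 probes move in opposite directions in fibrosis 3 (1.83 and 1.30, from normal means of 3.33 and -0.11). Both Rpl9 probes keep 1 order of the fibrotic livers.

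The remaining cytosolic ribosomal proteins, which the member list leaves out, were read the same way. Of 34 such genes tested, 0 were called higher and 0 lower, and 0 had an unadjusted p under 0.05. Their median difference was -0.26, with 29 below 0, and their median deviations were -0.41, 0.15 and -0.54 in fibrosis 1, 2 and 3. Without fibrosis 2, Rpl13a (-0.95), Fau (-1.03) and Rps21 (-0.93) were lower, 3 of 34 (8.82%, against 7.29% of all genes in that fit). This too is a description only. Members with the C and T run at the annotated start numbered 20 among those tested and had a median of -0.26. The 16 without a run at that start had -0.31. The difference between them was not tested.

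Other parts of the translation machinery gave the following median deviations in fibrosis 1, 2 and 3. Elongation factors and other genes with a terminal oligopyrimidine tract (17 tested) had -0.26, -0.14 and -0.45, and 0 were called. The 24 initiation factors had -0.21, -0.10 and -0.10, and 0 were called. Of 27 ribosome assembly genes Nop10, of the snoRNP that modifies ribosomal RNA, fell (-0.84 ± 0.24, SE, limma adjusted p = 0.0454), 1 of 27 genes against 7.62% of all genes. That call held under the array median and was lost under the other 5 of 6 scalings. Over all alternative settings, scalings included, it was lost in 13 of 18. The list had deviations of -0.20, -0.10 and 0.20. The 9 RNA polymerase I genes had -0.23, -0.08 and 0.48, with 0 called. The 68 mitochondrial ribosomal proteins had -0.46, -0.42 and -0.15. Of them Mrpl34 fell (-0.85 ± 0.22, SE, adjusted p = 0.0313), 1 of 68 genes against 7.62% of all genes. That call was lost under 4 of the 6 scalings, and in 10 of 19 alternative settings in all.

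Of 18 genes of mTOR signalling and oligopyrimidine message control, 1 was called higher and 2 lower, against 14.7% and 7.62% of all genes. Tsc1, a brake on mTOR, rose (1.02 ± 0.28, SE, limma adjusted p = 0.0366), a call lost under 4 of the 6 other scalings. Eif4ebp2, a repressor of cap-dependent initiation, fell (-0.97 ± 0.22, SE, adjusted p = 0.0170), and so did Cnbp, which binds oligopyrimidine messages (-0.97 ± 0.27, SE, adjusted p = 0.0418). Of the 6 other scalings, 1 ended the Eif4ebp2 call and 4 the Cnbp call. The Eif4ebp2 call was also lost without normal 1 (limma adjusted p = 0.0697), normal 2 (adjusted p = 0.0733) or normal 3 (adjusted p = 0.0836). With the slide row as a block it was lost too. Over all alternative settings, scalings included, the Tsc1 call was lost in 12 of 19 and the Cnbp call in 11 of 18. Of 7 genes of the p53 checkpoint, Cdkn1a, a cell cycle inhibitor, rose (1.54 ± 0.34, SE, adjusted p = 0.0161), against 14.7% of all genes. The 6 scalings kept the Cdkn1a call. It was lost without normal 1 (adjusted p = 0.0646) or normal 2 (adjusted p = 0.0728), and with the slide row as a block. With marked spots left out, where another probe can stand for the gene, Cdkn1a gave 0.20 (adjusted p = 0.620). The mean of its probes gave 0.87 (adjusted p = 0.0355). Of the 2 tested paralogs of ribosomal proteins and the 13 housekeeping genes, 0 were called.

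**Figure D5:**
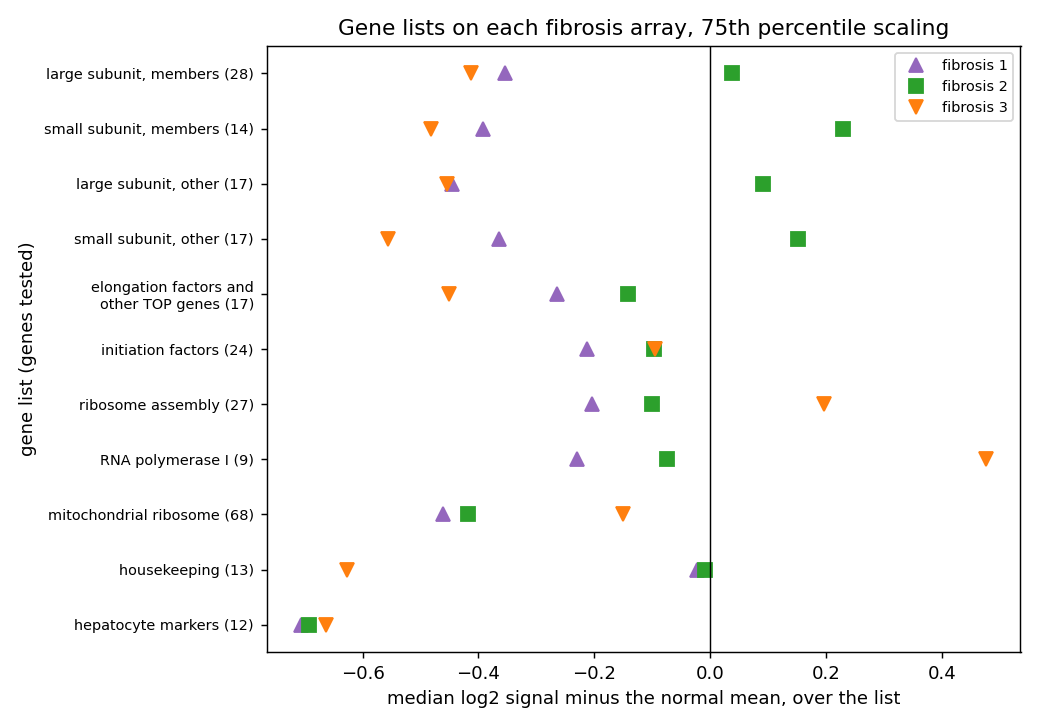
Median deviation from the normal mean, in log2 units, of each gene list on the 3 fibrosis arrays, with the number of tested genes in brackets. The 4 lists of cytosolic ribosomal proteins place fibrosis 2 above 0 and the other fibrotic livers below it, while the hepatocyte markers lie between -0.71 and -0.66 in all 3.

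Cell markers differed between the groups as follows, and their part in the ribosomal protein values was not tested. In bulk tissue fewer cells of a type and less RNA per cell cannot be told apart. Over all tested genes 14.7% were called higher and 7.62% lower. Marker signals were summed on the linear scale, in units of the array's 75th percentile. The sum of 12 hepatocyte markers ran from 172.8 to 188.1 in normal and from 108.6 to 124.1 in fibrotic livers. Of the 12, 1 was called lower (Cyp2e1, a drug-metabolising enzyme). The difference was below 0 for 11 of the 12, and the highest was 1.49. The sum of 8 duct cell markers ran from 0.589 to 0.778 and from 8.79 to 10.2, with 7 of 8 higher. That of 8 stellate cell and myofibroblast markers ran from 5.84 to 9.20 and from 13.7 to 30.6, with 5 of 8 higher. The sums of the 8 macrophage markers were 14.2 to 16.7 and 20.7 to 23.2 (1 higher, Itgam), and those of the 6 proliferation markers 2.89 to 3.63 and 5.88 to 7.34 (4 higher). Those of 5 endothelial markers were 11.55 to 12.5 and 7.15 to 10.3 with 0 called. The difference was below 0 for 3 of these 5, and the highest was 0.33. Their median deviations were 0.03, 0.22 and -0.76 in fibrosis 1, 2 and 3, so the sum does not describe each marker. Lum and Thy1 of the stellate list were on the array but too dim to test, and Krt7, a duct keratin, was above background on 1 of 3 normal arrays. Within the fibrotic group the stellate and myofibroblast sum was 27.8, 30.6 and 13.7 in fibrosis 1, 2 and 3, and the endothelial sum was 7.97, 10.3 and 7.15.

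Scanner marks were frequent in these genes. Of the 804 ribosomal protein spots on the 6 arrays, 498 (61.9%) carried a scanner mark (non-uniform, or an outlier of the array's spots), against 27.9% of spots of all probes. They were kept. Without them 19 probes of 18 genes had enough values, and Rps4x, with 10 spots, had all 10 marked on each array.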

How the data were processed

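Signals were read from 6 scanner output files, 1 array each. Per the file headers, the deposited processed signal is a linear intensity written by Agilent Feature Extraction with background subtracted, and no normalization between arrays is recorded. The median signal and background median intensities, also deposited, served 1 alternative. The array design and the RefSeq accessions come from the files. Accessions were matched without versions to the RefSeq gene table of GRCr8, which named 18355 of 30367 probes. Strain, tissue handling beyond the labels and any study method of analysis are not given in the sources used here.

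Processed signals were averaged over the spots of a probe as log2 values, after subtraction of the 75th percentile of the array. Controls were left out, marked spots were kept and 0 spots were saturated. A probe was tested if, in at least 1 group, at least 0.5 of its spots stood well above background on every array. The test was limma 3.58.1 (lmFit, eBayes; R 4.3.3), called at 0.05 after Benjamini-Hochberg adjustment of the p-values of all tested probes. The number of arrays, 3 per group, limits the precision. The fit was tried on simulated data with a single spread taken from the normal arrays and planted differences larger than those of the members. It therefore does not show how well differences of the members' size would be found. Replicates were numbered in record order and never pair arrays. Values are given on every array for called members, the 3 highest and 3 lowest differences, members with probes on both sides of 0, and Rplp0, Rplp1, Rplp2, Rpl5, Rpl11, Rps6 and Rps19, and from each other list for up to 2 called genes each way. The members and lists were chosen with earlier results of these data known. The 21 alternatives changed scaling, background, filter, fit, probe choice, threshold or the arrays used. Some marker results are not reported here.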

Additional observations from a re-analysis of the deposited data

How the results depend on the processing

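With the 75th percentile the median difference of the ribosomal protein genes was -0.26, and it moved to -0.62 with the array median, 0.18 with cyclic loess and 0.14 with quantile normalization. Member calls were 0 genes higher, 0 lower, 1 probe higher and 0 lower. The array median gave 4 genes and 5 probes lower and 0 probes higher. Array weights gave 1 gene higher, 7 lower, 2 probes higher and 16 lower. The 75th percentile over probes above background gave 1 gene and 2 probes higher, the lowest probe of a gene 1 gene higher, trend and robust fitting 1 probe lower. No filter, the slide row as a block and an adjusted p under 0.01 each gave 0 probes higher.

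Over all probes 2439 were higher and 1339 lower. The lower count was 3884 with the array median, 357 with E1A probes, 860 with the 75th percentile over probes above background, 610 with marked spots left out, 799 with no filter and 3580 with array weights. The slide row gave 1020 and 178, and the 0.01 threshold 1422 and 385. Of the 34 other ribosomal proteins, 2 were lower with the array median (against 21.2% of all genes) and 6 with array weights (against 19.7%). With marked spots left out 1 was lower, among those with enough values.

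Of all tested genes 14.7% were higher and 7.62% lower, with 21.2% lower under the array median and 19.7% lower with array weights. The other pathway lists together held 2 higher and 4 lower genes, and the marker lists 17 and 2. The array median gave 1 and 36 (markers 12 lower), cyclic loess 1 lower (markers 1), E1A 0 lower (markers 0), the 75th percentile over probes above background 1 lower (markers 1), normexp 1 higher, marked spots left out 1 higher (markers 1 lower), no filter 1 and 1 (markers 0 lower), trend and robust 11 lower (markers 7), array weights 5 and 47 (markers 27 and 11), the slide row 0 and 0 (markers 1 lower), the mean of probes 7 lower (markers 4) and the 0.01 threshold 0 and 0 (markers 0 lower).

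Leaving out each array gave medians from -0.44 to -0.14, genes higher 0 to 1 and lower 0 to 5, member probes 0 to 2 and 0 to 16, other ribosomal proteins 0 to 0 and 0 to 3, pathway lists 0 to 2 and 0 to 8, markers 16 to 21 and 0 to 3, and all probes 1514 to 2851 and 450 to 1620. The extremes of member calls came without fibrosis 2 or 3, and 1 of the 2 probes higher without fibrosis 3 was the third Rpl28 probe, dim on all normal arrays. With the slide row as a block the group effect is fibrosis 1 alone against normal. Of 552 values for the 32 probes of the named members, 15 gained and 8 lost the call. No paired analysis was possible because the replicate numbers were given in record order and pair no animals. The cause of these changes was not tested. Signal over background limited only the third Rpl28 probe.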

Other observations

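The third Rpl28 probe, which the comparison of all 6 arrays left out because it was not above background on the normal arrays, read -6.66, -6.82 and -6.71 there and -5.78, -5.64 and -6.01 in the fibrotic livers, with 2, 2 and 0 of its 2 spots above background in fibrosis 1, 2 and 3. Of the 13 housekeeping genes, 2 had an unadjusted p under 0.05 and 0 were called, with differences from -0.68 to 0.66.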
